A study of Mus musculus with 12 samples.

Results

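The genes described here encode the NF-kB transcription factors of the mouse and the proteins that hold them in check. They were taken by name: the subunits Rela, Rel, Relb, Nfkb1 and Nfkb2, and, counted here as inhibitors, Nfkbia, Nfkbib, Nfkbie, the related nuclear protein gene Nfkbiz and Tnfaip3. All 10 have an entry among the 29957 of the microglia table, and 9 have one among the 14663 of the hippocampus table. The 12 RNA samples are from C57BL/6 mice, 3 to a group. Microglia (macrophages that live in the brain) of the hippocampus came from mice aged 3 or 24 months, and bulk hippocampus from mice aged 6 or 18 months. No group carries a named transgene, deletion or treatment, and the design asks how each kind of sample differs with age. How microglia were purified is not labelled, nor is it stated that replicates are separate mice; p-values therefore measure only the spread between these samples, which may be technical.

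NF-kB factors are dimers. In a resting cell most dimers are kept in the cytoplasm by inhibitor proteins of the I-kappa-B family, and signals from tumour necrosis factor, interleukin 1 or Toll-like receptors lead to phosphorylation and breakdown of the inhibitor, after which the dimer enters the nucleus and binds DNA. Several of the genes it switches on encode its own brakes, among them Nfkbia and Tnfaip3, so that the messages of these inhibitors are widely used as a readout of the pathway. In microglia the pathway is known for driving the production of cytokines and chemokines. The amount of a subunit's message says nothing of where its protein is in the cell, which was not measured.

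Some libraries stand apart from the rest. Microglia libraries hold 8072855 to 14226478 estimated counts and rest on 5 ng of RNA amplified in 12 PCR cycles, so counting intervals would not cover the error of amplification. All 10 microglial marker genes were detected, with a sum of 66856 to 70653 CPM (counts per 1e+06 counts of the library, after scaling between libraries) at 3 months and of 48144, 49021 and 63753 in replicates 1, 2 and 3 at 24 months. In 24 month replicates 1 and 2 the 21 listed immediate early genes, which respond within minutes to many stimuli including tissue handling, summed to 34713 and 36885 CPM. Replicate 3 had 1858 CPM of these genes and the 3 month libraries 1418 to 2287 (Egr3 was at 0 throughout). The mitochondrially encoded share of counts was 0.883% and 0.888% in the same pair of libraries, 0.326% in replicate 3 and 0.249% to 0.293% at 3 months. The 11 neutrophil markers summed to 2777, 34.1 and 8.94 CPM at 24 months and to at most 8.76 at 3 months, with Mmp8 at 0. The 6 monocyte markers summed to 191.3, 37.2 and 2.95 CPM at 24 months and to at most 9.23 at 3 months, with Vcan at 0. The 6 mural cell markers reached 294.5, 38.8 and 0.746 CPM against at most 0.874, with Pdgfrb at 0. Endothelial and astrocyte markers were above the 3 month range in every 24 month library, at 51.9 to 139.6 against 23.5 to 45.6 CPM and at 47.7 to 76.4 against 14.6 to 20.6 CPM. Border macrophage, lymphocyte and neuron markers stayed at or under 23.6 CPM in every library. Oligodendrocyte markers summed to 172.4 to 200.9 CPM at 3 months and 177.5 to 262.6 at 24 months. The part of other cell types and of the immediate early state in the results on microglia was not tested. In these summed cell samples, fewer cells of a type and less RNA per cell cannot be told apart.

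The inhibitors Nfkbia, Nfkbiz and Tnfaip3 and the subunit Rel had far higher levels in 24 month microglia replicates 1 and 2 than in any 3 month library, while 24 month replicate 3 was close to or within the 3 month range. For Rela, Relb, Nfkb1, Nfkbib and Nfkbie the ages overlapped. None of the 9 members that passed the filter on low counts was called higher or lower by edgeR's quasi-likelihood test at an adjusted p under 0.05, where 0% of all 10663 tested genes were called in either direction. At an unadjusted p under 0.05 the same test had 4 of 9 members higher and 0 lower, beside 3.52% and 2.02% of all tested genes. Nfkb2 did not pass the filter and is not in these counts, though its log2 change in the authors' deposited table was negative (-5.73). The filter can pass a gene on its older libraries alone. Counts over the 9 members, here and below, therefore describe them and do not test them.

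Nfkbia encodes I-kappa-B alpha, the inhibitor that is broken down and remade fastest when the pathway is switched on. It stood at 133.2, 131.9 and 136.2 CPM in the 3 month libraries and at 2129.6, 1825.8 and 157.7 CPM in 24 month replicates 1, 2 and 3. Every older library was above every younger one, but replicate 3 was only 1.18 times the 3 month mean, against 15.9 and 13.6 times for the other 2. At 3 months its level had the smallest spread of the members (133.8 ± 2.24 CPM, SD, n = 3). The log2 change was 3.36 ± 0.81 (SE), with an edgeR p of 0.0037 and an adjusted p of 0.546.

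Rel encodes c-Rel, a subunit best known from lymphocytes and myeloid cells. Its level was 49.8, 34.8 and 64.0 CPM at 3 months and 453.4, 437.2 and 69.1 CPM at 24 months. Again no older library fell within the 3 month range, and replicate 3 lay just above its top. The log2 change was 2.69 ± 0.66 (SE), with an edgeR p of 0.00404 and an adjusted p of 0.546.

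Tnfaip3 encodes A20, a ubiquitin-editing enzyme that ends signalling upstream of NF-kB. It had 0.299, 40.8 and 40.5 CPM at 3 months and 308.8, 344.6 and 68.5 CPM at 24 months. The ages did not overlap, and the lowest value, in 3 month replicate 1, rested on 4 counts. The log2 change was 3.15 ± 1.30 (SE), with an edgeR p of 0.0439 and an adjusted p of 0.893. Without 3 month replicate 1 it was 2.56, with an adjusted p of 0.868.

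Nfkbiz encodes I-kappa-B zeta, a nuclear protein that is itself induced by NF-kB and is needed for a set of secondary response genes. It was measured at 1.34, 6.74 and 43.6 CPM at 3 months and at 770.1, 827.0 and 2.09 CPM at 24 months. The ages overlapped, since 24 month replicate 3 was below 2 of the 3 younger libraries. The log2 change was 4.94 ± 1.90 (SE), with an edgeR p of 0.0329 and an adjusted p of 0.871, and it was 7.07 without 3 month replicate 3.

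**Figure D1:**
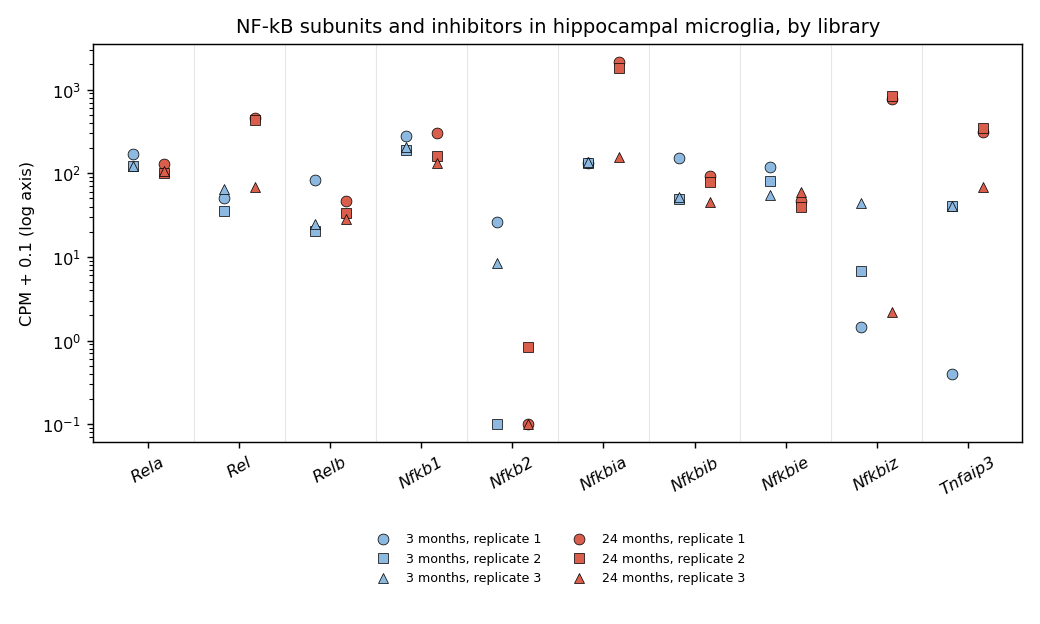
Level of each NF-kB gene in each microglia library, as CPM + 0.1 on a log axis; each point is a library, blue for 3 months and red for 24 months, with 3 libraries per age. Nfkbia, Rel, Nfkbiz and Tnfaip3 each have 2 older libraries far above the rest and 1 near the younger range.

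Whether Nfkbia and Rel were called depended on the tool and on 24 month replicate 3. In the authors' deposited table, Rel (adjusted p = 0.0211) and Nfkbia (adjusted p = 0.00703) were higher at 24 months, and these 2 were the only ones of 9 members with an adjusted p in it to be called. That table calls 1.54% of its genes higher and 0.472% lower. Running DESeq2 on the rounded counts gave the same 2 members, Rel with an adjusted p of 0.00347 and Nfkbia with 0.0308, beside 1.17% of genes higher and 0.193% lower. For Nfkbiz both gave a log2 change (4.84 in the deposited table and 4.97 here) but neither a p nor an adjusted p. With 24 month replicate 3 left out, edgeR called Rel (log2 change 3.14, adjusted p = 0.0157) and Nfkbia (3.86, adjusted p = 0.00125), which then rest on 2 older libraries, beside 0.445% of genes higher and 0.0445% lower.

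Each 24 month library was set against all 3 younger ones. Replicate 1 had 5 of the 9 tested members above every 3 month library and 1 below, beside 29.9% and 29.5% of all tested genes. Replicate 2 had 4 above and 3 below (28.1% and 22.8%), and replicate 3 had 3 above and 3 below (23.0% and 19.3%). Over the whole group, 3 of the 9 tested members had every older library above every younger one, where 7.26% of all tested genes did, and 0 had every older library below, where 6.16% did. A pattern noticed in the data, in which 24 month replicates 1 and 2 exceed 2 times every younger library and replicate 3 does not, held for 4 of the 9 members and for 3.67% of all tested genes. Having been drawn from these same data, the pattern describes the members and does not test them. It held for 11 of the 85 tested genes of the pathway lists, and for 13 of the 17 tested immediate early genes, so the libraries with high Nfkbia and Rel are those with high immediate early genes.

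Promoter sequence was read for 7 of the 10 genes with an entry in the RefSeq table of GRCm38.p6. The 250 bases before each start site were searched on both strands for the kappa B consensus (10 bases), the kind of site that NF-kB dimers bind. A match was found in 5 of the 7 genes (Rel, Nfkb2, Nfkbia, Nfkbie and Tnfaip3; not in Rela or Nfkbib), where 8.233% of all 27025 genes have one. The promoters of 2 genes with high levels in 24 month replicates 1 and 2, and of Nfkbie, whose level was not higher there, are printed 5′ to 3′ toward the start, with the matched bases in capitals.
Nfkbia: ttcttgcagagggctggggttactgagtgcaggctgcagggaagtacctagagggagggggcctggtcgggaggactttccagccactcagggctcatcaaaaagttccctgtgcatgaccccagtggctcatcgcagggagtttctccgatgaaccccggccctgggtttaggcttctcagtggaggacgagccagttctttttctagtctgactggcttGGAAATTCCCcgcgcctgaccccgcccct
Rel: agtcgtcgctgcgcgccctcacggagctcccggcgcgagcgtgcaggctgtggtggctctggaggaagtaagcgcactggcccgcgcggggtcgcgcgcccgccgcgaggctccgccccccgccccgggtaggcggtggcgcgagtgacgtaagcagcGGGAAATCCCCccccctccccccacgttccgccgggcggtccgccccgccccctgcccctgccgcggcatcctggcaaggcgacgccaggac
Nfkbie: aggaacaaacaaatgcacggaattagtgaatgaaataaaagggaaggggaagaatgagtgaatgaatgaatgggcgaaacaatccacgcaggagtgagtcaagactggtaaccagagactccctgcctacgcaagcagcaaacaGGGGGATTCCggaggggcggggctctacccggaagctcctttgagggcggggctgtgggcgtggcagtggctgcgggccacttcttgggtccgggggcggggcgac
The gene Nfkbia spans chr12:55489410-55492647 of GRCm38 on the minus strand, and the bases shown are chr12:55492648-55492897, with the match 29 to 20 bases before the start. The gene Rel spans chr11:23736847-23770970 on the minus strand, its promoter is chr11:23770970-23771219, and its overlapping matches cover 92 to 82 bases before the start. That of Nfkbie, a gene on the plus strand, is chr17:45555450-45555699, with a match from 106 to 97 bases before the start. A match was thus present both in genes with high levels in 24 month replicates 1 and 2 and in genes without (Nfkbie and Nfkb2), and it shows letters in the sequence, not binding.

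Rela encodes p65, the main subunit with a transactivation domain, and pairs most often with the p50 product of Nfkb1. Its level was 171.8, 120.7 and 122.2 CPM at 3 months and 128.8, 99.7 and 106.3 CPM at 24 months. The 2 lowest values were both from older libraries, but replicate 1 at 24 months was above 2 of the younger ones. The log2 change was -0.31 ± 0.25 (SE), with an edgeR adjusted p of 0.993.

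Nfkb1, whose product is cut to p50 and carries no transactivation domain, had 279.6, 190.2 and 208.1 CPM at 3 months and 303.0, 158.4 and 131.5 CPM at 24 months. The older libraries held both the highest and the lowest values, and the log2 change was -0.19 ± 0.35 (SE; edgeR adjusted p = 0.998). Relb, the partner of p52 in the noncanonical pathway, had 83.3, 20.1 and 24.6 CPM at 3 months and 46.1, 33.7 and 28.4 CPM at 24 months. One 3 month library was far above the rest, and without that library, replicate 1, the log2 change went from -0.24 ± 0.67 (SE) to 0.68; the edgeR adjusted p was 0.998 over all libraries.

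Nfkb2, the precursor of p52, was the least detected member. It had 352.8 and 122.8 estimated counts in 3 month replicates 1 and 3 and 7.36 in 24 month replicate 2, and rounded to 0 in the remaining libraries. All older libraries were thus at or near 0, and so was 1 younger library. In the authors' deposited table the log2 change was -5.73 (p = 0.0338, adjusted p = 0.392). Exons of Nfkb2 overlap those of the antisense genes Psd (6.523% of its exon bases) and AC114539.1 (11.58%), and the labels name no kit that keeps strand, so reads of these genes cannot be told apart there.

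Nfkbib, which encodes I-kappa-B beta, had 152.9, 49.7 and 51.4 CPM at 3 months and 92.8, 78.8 and 44.9 CPM at 24 months. As with Relb the top value was 3 month replicate 1, and without it the log2 change turned from -0.23 ± 0.53 (SE; edgeR adjusted p = 0.998) to 0.51. Its exons overlap those of the antisense genes Ccer2 (14.48%) and Sirt2 (1.936%). Nfkbie, which encodes I-kappa-B epsilon, had 120.1, 81.4 and 54.5 CPM at 3 months and 46.1, 39.1 and 60.3 CPM at 24 months. Only 1 older library reached into the younger range, at its low end, and the log2 change was -0.82 ± 0.40 (SE), with an edgeR adjusted p of 0.958.

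**Figure D2:**
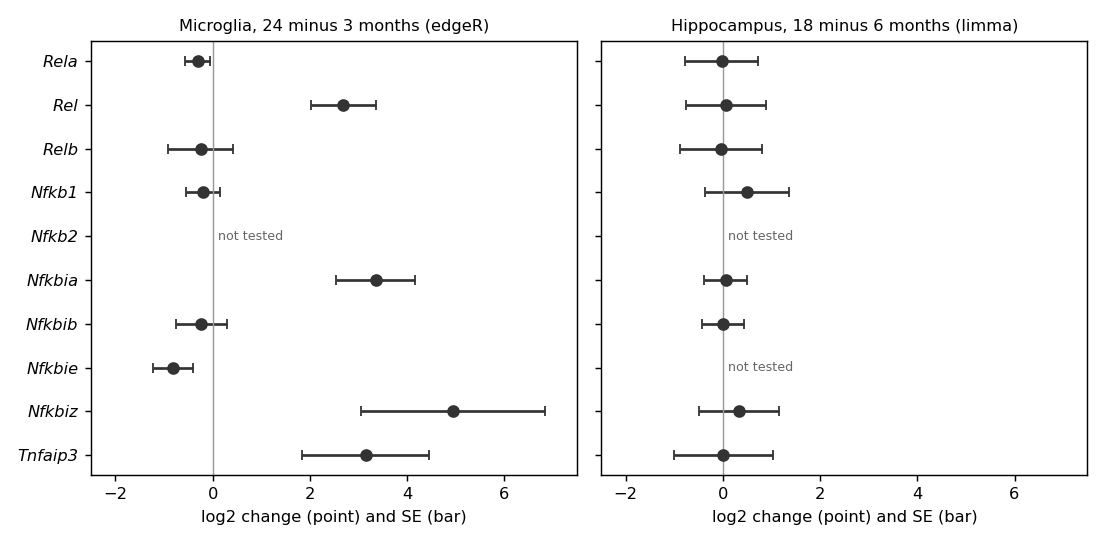
Log2 change with its standard error for each tested member, 24 minus 3 months in microglia and 18 minus 6 months in hippocampus; points are estimates, bars are SE, and a line marks 0. In microglia 4 members lie at 2.69 or above and 5 between -0.82 and -0.19, while every hippocampus value lies between -0.04 and 0.49.

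Across the 6 microglia libraries some members had like profiles. These are described by Pearson's r of log2 CPM with no test, since all values share the same libraries. Rel and Nfkbia had r = 0.983, Nfkbia and Nfkbiz r = 0.914, and Rel and Nfkbiz r = 0.911. Tnfaip3 was less close to these, with r = 0.727 to Nfkbia, 0.725 to Rel and 0.784 to Nfkbiz. Rela had r = 0.793 with Nfkb1, 0.788 with Nfkbie and -0.825 with Tnfaip3. Relb and Nfkbib had r = 0.949, which follows 3 month replicate 1. Nfkbie and Tnfaip3 ran opposite to each other (r = -0.940), and Nfkb1 and Nfkbia had r = 0.177. Among 7818 genes with a mean of at least 10 CPM, the closest to Nfkbia were H3f3b (r = 0.9991), mt-Atp6 (0.9988), H2-Q10 (0.998), mt-Cytb (0.998) and Tra2b (0.996). H3f3b, a replacement histone gene, had 1335.7 to 1404.0 CPM at 3 months and 4914.0, 4861.2 and 1478.9 CPM at 24 months. Genes close to Nfkb1 included Ift20 (0.991), Ercc4 (0.989), Phf8 (0.987) and Ncbp2 (0.986).

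Comparing levels between genes requires a scale per transcript length, for which the authors' TPM values were used. At 3 months the order by mean TPM was Nfkb1 (136.9 ± 22.3, SD, n = 3), Nfkbia (127.9 ± 8.18), Nfkbib (104.5 ± 70.2), Rela (73.9 ± 13.5), Nfkbie (50.8 ± 17.8), Relb (27.1 ± 19.9), Rel (9.47 ± 3.19), Tnfaip3 (8.76 ± 7.48), Nfkbiz (7.89 ± 10.8) and Nfkb2 (5.52 ± 6.32). The ranges of neighbours in that order overlapped, apart from Relb (13.9 to 50.04 TPM) and Rel (6.43 to 12.8 TPM). Within each younger library Rela was also above Nfkbie and Nfkbie above Relb. At 24 months Rel was above Relb in replicates 1 and 2, at 80.4 against 33.2 and 82.3 against 22.9 TPM, and below it in replicate 3, at 13.3 against 19.1 TPM. TPM also depends on the average transcript length the authors assigned. Between libraries this length ran from 1804 to 2262 bases for Relb, 2221 to 3413 for Nfkbiz and 2667 to 4446 for Tnfaip3. With these lengths as offsets edgeR called 0 genes, as it did without them. The log2 change was then -0.099 for Relb, 4.82 for Nfkbiz and 3.27 for Tnfaip3. In all 3 younger libraries Nfkb1 was the most abundant subunit message. At 24 months the mean TPM of Nfkbia was 1276 ± 975, which ranked it highest in all 3 older libraries, while Nfkb1 had 116.7 ± 49.99 and Rela 58.8 ± 5.78.

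The ratio of inhibitor to subunit messages followed the same libraries. Nfkbia TPM was 1.37, 1.96 and 1.98 times that of Rela at 3 months and 29.6, 32.8 and 2.66 times at 24 months. Summed over the 5 genes counted as inhibitors, with Nfkbiz among them although it also acts as a coactivator, and over the 5 subunits, the ratio was 1.17, 1.21 and 1.19 at 3 months and 6.96, 9.12 and 1.59 at 24 months. The younger libraries were nearly equal in that ratio although their members differed, and all 3 older libraries were above them. Rel made up 2.84%, 3.14% and 5.55% of subunit TPM at 3 months and 22.8%, 32.4% and 7.73% at 24 months. Nfkb1 made up 50.2%, 59.1% and 55.1% and then 49.3%, 37.4% and 47.3%.

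**Figure D3:**
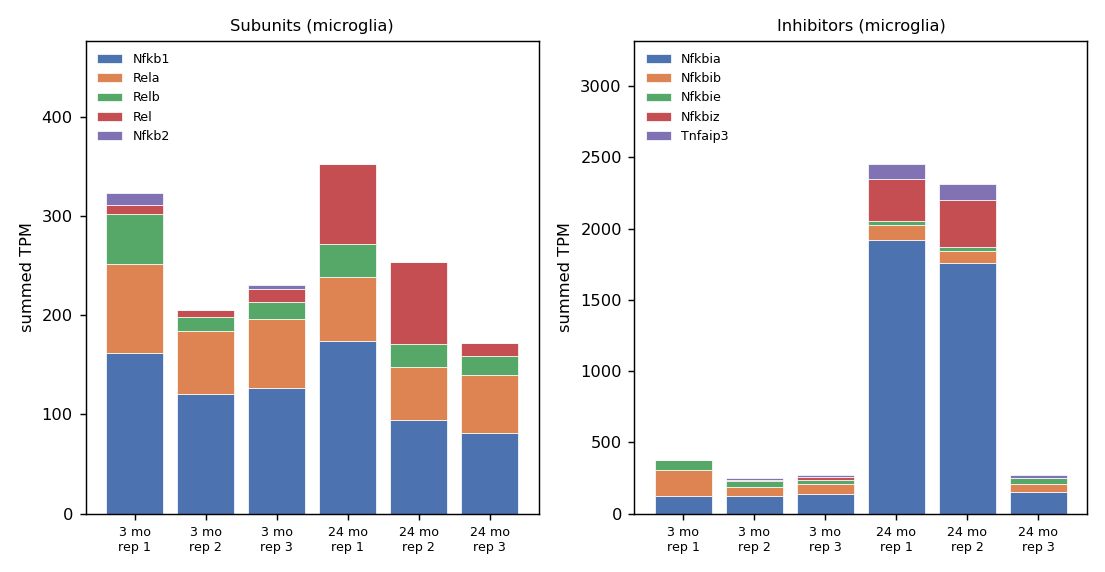
Summed TPM of the 5 subunits (one panel) and the 5 inhibitors (other panel) in each microglia library, stacked by gene from 0. The inhibitor stack is 2454 and 2316 TPM in 24 month replicates 1 and 2 and 247.6 to 378.2 in the other 4 libraries, whereas the subunit stack lies between 171.9 and 352.5 TPM.

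The genes around NF-kB were read from lists of the pathway. Among ligands, Tnf, which encodes tumour necrosis factor, had 0.597, 0.873 and 1.97 CPM at 3 months and 644.6, 466.5 and 10.2 CPM at 24 months. All 3 older libraries were above the younger ones, and replicate 3 was again the lowest of them. The log2 change was 8.30 ± 1.52 (SE), with an edgeR p of 7.18e-04 and an adjusted p of 0.539. Il1a, which encodes interleukin 1 alpha, had 153.1, 105.7 and 151.8 CPM at 3 months and 1204.2, 1091.8 and 162.9 CPM at 24 months (log2 change 2.58 ± 0.66, edgeR adjusted p = 0.576). Il1b, which encodes interleukin 1 beta, had 0.0746, 0 and 2.86 CPM at 3 months and 32.3, 14.7 and 1.71 CPM at 24 months, with overlapping ages (4.02 ± 2.07, adjusted p = 0.967).

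Of the receptors 0 of 14, and of the adaptors and kinases 1 of 24, had 24 month replicates 1 and 2 alone above 2 times every younger library, beside 3.67% of all tested genes. The 1 was Tank, named after its values were seen. Of 14 tested receptors 7 had a positive and 7 a negative log2 change, with a median of -0.02, where the median over all tested genes was 0.01. Tlr2, a receptor for bacterial lipoproteins, had 113.8, 226.3 and 174.9 CPM at 3 months and 395.7, 247.7 and 305.5 at 24 months, and Tlr6, its partner, had 90.1, 75.9 and 87.6 and then 30.2, 42.8 and 56.0. Their ages did not overlap, in opposite directions, with edgeR adjusted p of 0.804 and 0.868. Of 24 adaptors and kinases 14 were positive and 10 negative (median 0.17). Traf5, a TNF receptor adaptor, was the adaptor with the smallest p, at 256.3, 109.6 and 93.5 CPM at 3 months and 47.0, 54.4 and 54.6 CPM at 24 months (log2 change -1.56 ± 0.42, edgeR adjusted p = 0.629). It was thus lower in every older library, with replicate 3 close to replicates 1 and 2.

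Among 17 other regulators 13 had a positive log2 change and 4 a negative one (median 0.41). Nfkbid, which encodes the nuclear protein I-kappa-B NS, had 0.224, 1.75 and 19.7 CPM at 3 months and 149.9, 164.1 and 9.30 CPM at 24 months and, like Nfkbiz, was high in replicates 1 and 2 alone (3.89 ± 1.59, edgeR adjusted p = 0.893). Of 35 listed target genes of NF-kB 23 were tested, and 5 of those listed were at 0 in every microglia library. Among the 23 tested 19 were positive and 4 negative (median 1.05). At an unadjusted edgeR p under 0.05, 10 had a positive change and 0 a negative one (3.52% and 2.02% of all tested genes). Every older library was above every younger one for 9 and below for 0 (7.26% and 6.16%). The list was chosen with earlier results known, and the filter on low counts can pass a gene on its older libraries alone. The counts therefore describe the list and do not test it. Ccl3 and Ccl4, chemokines that draw in immune cells, had log2 changes of 4.37 ± 0.94 and 3.97 ± 0.84 (edgeR adjusted p = 0.539 for both). Ccl4 stood at 29.7, 66.6 and 32.8 CPM at 3 months and 1074, 850.9 and 95.7 CPM at 24 months. Il1rn, the interleukin 1 receptor antagonist, differed from these in that replicate 3 was the highest: 0.385, 0.254 and 0.353 CPM at 3 months and 19.9, 30.1 and 36.4 CPM at 24 months (6.43 ± 1.07, edgeR adjusted p = 0.539). No gene of the 5 lists was called by edgeR, whose smallest adjusted p over all genes was 0.410. Of the 91 list genes with an adjusted p in the authors' deposited table, 8 were higher (Tnf, Il1a, Ccl2, Ccl3, Ccl4, Ier3, Il1rn and Olr1) and 0 lower. Of all genes there, 1.54% were higher and 0.472% lower. The called genes were 2 of 7 ligands and 6 of 26 target genes. None of 16 receptors, 25 adaptors and kinases or 17 other regulators was called.

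**Figure D4:**
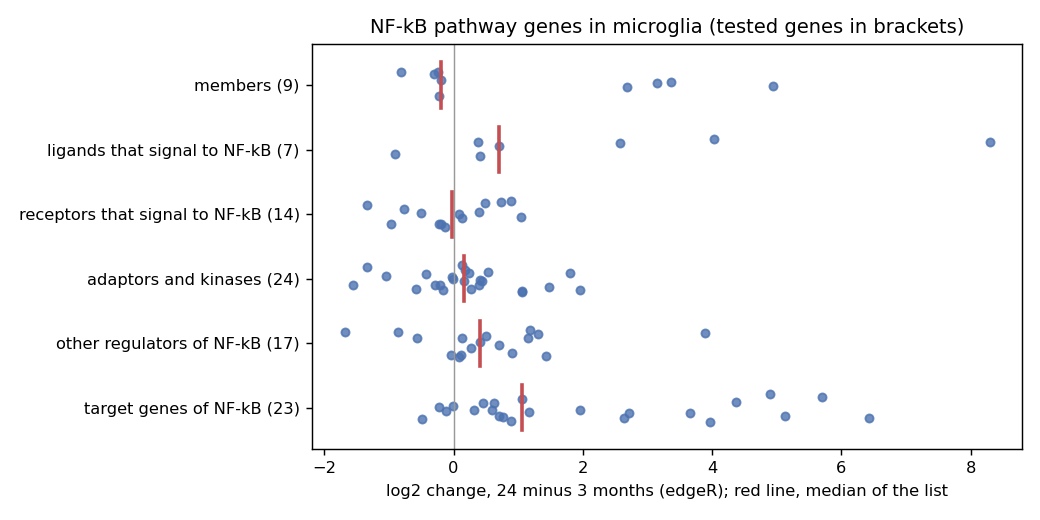
Log2 change (24 minus 3 months, edgeR) of each tested gene in the members and in each pathway list of the microglia; each point is a gene, the red line the list's median. Medians lie at -0.02 for receptors, 0.17 for adaptors and kinases, 0.41 for other regulators, 0.71 for ligands and 1.05 for target genes.

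In bulk hippocampus the levels of the members overlapped between 6 and 18 months. Of the 8 that were tested, none was called by limma's moderated test (adjusted p from 0.954 to 0.9997), where 0% of 13491 genes were called in either direction, and 0 had an unadjusted p under 0.05, beside 2.13% of genes higher and 3.24% lower. The authors' deposited table also called 0 of these members, with 0.118% of its genes higher and 0.186% lower. No tested member had groups that did not overlap, where 5.03% of genes had every 18 month library above and 5.93% had every one below. The labelled tissue holds many cell types, of which microglia are a minority. The 10 microglial markers summed to 520.8 to 621.1 normalized counts at 6 months and 642.4 to 707.6 at 18 months, and neuron markers to 6692.8 to 7321.1 and 6576.1 to 7123.7.

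Nfkbia had 23.1, 29.2 and 43.6 normalized counts at 6 months and 37.6, 23.3 and 38.1 at 18 months. The ages overlapped widely, and the log2 change on the log2(value + 1) scale was 0.06 ± 0.44 (SE). Rela had 29.2, 9.02 and 15.9 at 6 months and 46.7, 9.64 and 8.53 at 18 months, with the highest and the lowest value both among the older libraries (-0.03 ± 0.75). Rel had 9.82, 10.7 and 3.15 at 6 months and 8.98, 9.91 and 4.65 at 18 months (0.08 ± 0.82). Both ages held 2 libraries near 10 and 1 much lower.

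Nfkb1 had 6.21, 6.14 and 3.01 at 6 months and 16.6, 6.44 and 3.38 at 18 months (0.49 ± 0.86), where 1 older library was above the rest. Tnfaip3, the tested member with the largest SE, had 2.37, 44.3 and 7.22 at 6 months and 23.2, 2.80 and 13.005 at 18 months (0.01 ± 1.01). Relb had 10.2, 3.34 and 10.02 and then 11.8, 3.30 and 7.87 (-0.04 ± 0.85). Each age had 1 Relb library near 3 and 2 higher. Nfkbib had 41.4, 21.6 and 37.6 and then 38.3, 32.9 and 26.7 (-0.00 ± 0.43). Nfkbiz had 4.23, 4.39 and 7.91 and then 11.5, 6.73 and 4.21 (0.34 ± 0.83). Nfkbie was listed at 0 in all 3 libraries at 6 months and in 1 at 18 months, with 6.13 and 16.7 in the others, and did not pass the filter. In the authors' deposited table Nfkbie was higher at 18 months (log2 change 5.67 ± 1.95, SE), with a Wald p of 0.00368 and no adjusted p. Its mean normalized count there was only 3.80. Nfkb2, Tnf and Il1b have no entry in the hippocampus table and so were not analysed there. Depth is unknown for these values, so no limit is set on the sizes a change could have beyond the SE.

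**Figure D5:**
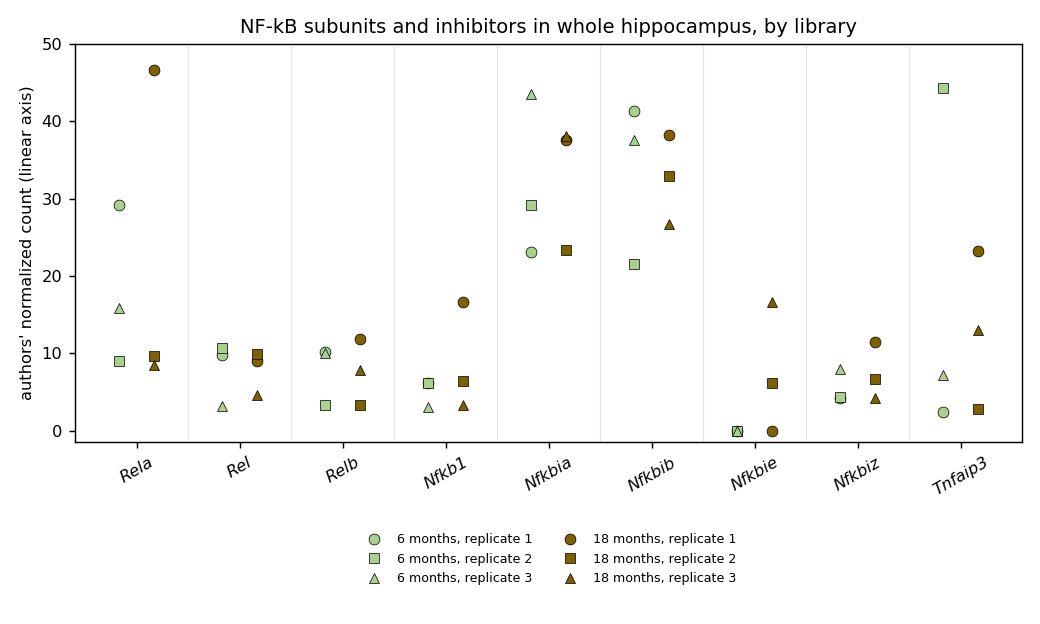
Authors' normalized count of each member with an entry in the hippocampus table, on a linear axis; each point is a library, green for 6 months and brown for 18 months, with 3 libraries per age. The ages overlap for every gene shown; Nfkbie is at 0 in all 6 month libraries and in 1 at 18 months.

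The lists around the members gave no call in the hippocampus either. Of 2 tested ligands both had a positive log2 change (median 0.73), of 12 receptors 5 were positive and 7 negative (median -0.06), and of 18 target genes 7 and 11 (median -0.09). Il18, a ligand, had 4.35, 5.72 and 2.66 normalized counts at 6 months and 14.3, 11.4 and 7.86 at 18 months, with no overlap (1.22 ± 0.80, limma adjusted p = 0.913). Of 25 tested adaptors and kinases 7 had a positive and 18 a negative log2 change (median -0.23), and of 16 other regulators 3 were positive and 13 negative (median -0.29), where the median over all tested genes was -0.04. N4bp1, which encodes an inhibitor of NF-kB signalling, had 16.0, 8.94 and 26.4 normalized counts at 6 months and 64.7, 38.3 and 35.6 at 18 months. Every older library was above every younger one (1.45 ± 0.52, limma adjusted p = 0.877). Tnfrsf12a, the receptor with the smallest p, had 4.13, 16.2 and 3.78 at 6 months and 0, 0 and 1.51 at 18 months. Every older library was below every younger one (-2.47 ± 0.93, limma adjusted p = 0.877). Of the 73 tested genes of the pathway lists, 2 had every older library above every younger one and 5 had every one below. Among all tested genes these shares were 5.03% and 5.93%. Ticam1, the adaptor of Tlr3, had 9.80, 12.5 and 1.88 at 6 months and 3.56, 0 and 0 at 18 months (-2.18 ± 0.998, limma adjusted p = 0.909). Immediate early genes summed to 795.2 to 987.6 normalized counts at 6 months and 760.2 to 1010.5 at 18 months, with no library standing apart. The microglia and hippocampus cover different ages and were normalized separately, so their levels are not compared.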

How the data were processed

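Per the labels' protocols, cDNA was primed with oligo-dT from 5 ng of RNA, amplified in 12 PCR cycles and tagmented. Per the submitters' processing notes, kallisto, DESeq and DESeq2 were used, with the builds GRCm39 and mm10 named without roles or versions. The authors deposited, per the file headers, estimated counts, TPM values and a mean transcript length for every gene in the microglia. For each tissue they deposited tables of normalized counts (a signal scaled between samples), log2 fold changes, a Wald statistic (a score) and p-values.

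Estimated counts were rounded, then tested with edgeR 4.0.16 (quasi-likelihood, TMM, filterByExpr, R 4.3.3) in the 6 microglia libraries. Entries with no gene name were left out (0.0546% to 0.0771% of counts). CPM use TMM-scaled sizes. The SE given with an edgeR log2 change is that change, without its sign, divided by the square root of the test's F statistic. The hippocampus signal was tested with limma 3.58.1 (mean trend) as log2(value + 1), for genes that reached 1 in 3 or more libraries. Such log2 changes understate those of low genes. Only 15.3% to 18.3% of its low values were whole multiples of a step (tolerance 0.1), so counts were not recovered, and its entries with no gene name held 0.0233% to 0.0335%. The deposited hippocampus log2 changes are 6 over 18 months and were turned here to 18 minus 6. Benjamini-Hochberg adjustment ran over all tested genes of a comparison, two-sided, with a threshold of 0.05. Alternatives were DESeq2 1.42.0, other scalings, filters and pseudocounts, length offsets, a replicate block and leaving out libraries. The fits were tested on simulated data.

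The members and lists were chosen with earlier results of these data known. The text names the members, the 3 genes of smallest p in a list at most, Tnf, Il1b and the 5 genes of highest r with Nfkbia and with Nfkb1, of which 1 is not reported here. Olr1, Ier3 and Ccl2 were named after their values were seen.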

Additional observations from a re-analysis of the deposited data

How the results depend on the processing

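Calls in the microglia depended on the tool and on 24 month replicate 3. DESeq2 called 141 genes (1.17% of genes higher and 0.193% lower). These included 2 of the 9 members that passed the filter, of which Nfkbiz had no p. They also included 7 of the 85 pathway list genes that passed it. In the main fit edgeR called 0 of each. Leaving out 1 library at a time gave 0 to 55 genes, 0 to 2 members and 0 to 4 list genes. The highest counts were always without 24 month replicate 3, where 0.445% of genes were called higher and 0.0445% lower. Members with groups that do not overlap numbered 3 (3 higher, 0 lower) with all libraries and 3 to 5 when 1 was left out. The 5 were 3 higher and 2 lower without 24 month replicate 1 (11.5% and 9.23% of all tested genes) and 4 and 1 without 24 month replicate 3 (15.7% and 14.8%). When both replicates numbered 1 were left out, a setting chosen after seeing the data, there were 6, of which 4 were higher and 2 lower (18.0% and 17.0%). The 4 members with high levels kept a positive log2 change under all 12 alternatives, Nfkbia from 2.81 to 3.86 and Rel from 2.34 to 3.14. Relb turned to 0.035 with the replicate block and 0.47 without both replicates 1, and ranged from -0.60 to 0.68 when 1 library was left out. Nfkbib was 0.29 without both replicates 1 and -0.52 to 0.51 with 1 library left out, and Nfkb1 was -0.65 to 0.0090. The cause of these turns was not tested.

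In the hippocampus, limma without trend called 1 gene and leaving out a library 0 to 1, none of them a member. Members with groups that do not overlap numbered 0 to 1, the 1 being Nfkb1, higher without 18 month replicate 3, where 11.3% of all tested genes were higher and 12.9% lower in this way. With 1 library left out, the log2 change was -0.049 to 0.95 for Nfkb1, -0.14 to 0.30 for Nfkbia, -0.28 to 0.17 for Nfkbib, -0.41 to 0.37 for Rel, -0.77 to 0.39 for Rela, -0.50 to 0.39 for Relb and -0.83 to 1.05 for Tnfaip3. Pseudocounts turned Nfkbib to 0.00033 (0.5), Rela to 0.012 (5) and Tnfaip3 to -0.055 (5).

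Same-numbered libraries did not deviate together (r = 0.0649, 0.0117 and -0.0271 in microglia and 0.0117, 0.00941 and 0.0142 in hippocampus), so the numbers were not used as pairs. The fit with the replicate block called 0 genes in both tissues. Precision is limited by 3 libraries per group, by amplification without molecular identifiers and, in the hippocampus, by unknown depth.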
